A study of Mus musculus with 2 samples.

Results

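Cycling beta cells are the insulin-producing cells of the pancreatic islet in which transcripts of the cell division programme were found. They were chosen by their measured values, in steps. Barcodes passed as cells from 1500 unique molecular identifiers (UMIs, each marking 1 captured transcript) and 500 genes upwards, if no more than 15% of their UMIs came from genes of the mitochondrial genome. A cell was called a beta cell when Ins1 and Ins2 together made up at least 30% of its UMIs, with under 2% for Gcg, under 1% for Sst and under 5% for Ppy. A beta cell was called cycling when at least 2 of the 6 genes Mki67, Top2a, Cdk1, Ccna2, Birc5 and Ube2c had at least 1 UMI. This gave 205 cycling cells among 6856 beta cells in the HFD library and 253 among 5756 in the CD library, or 458 of 12612 beta cells and of 21729 kept barcodes in all.

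The islets came from C57BL/6J mice aged 13 weeks, with 1 library of mice on a high-fat diet (HFD) and 1 library of mice whose group is given as CD, an abbreviation that is not spelled out. No allele, transgene or agent other than the diet is named for either group. The number of mice pooled in a library and the length of the feeding are unknown here. The study was set up to find subpopulations of islet cells in a diet-induced model of prediabetes. Each diet has 1 library and cells of 1 library are not replicates, so no test between groups was made, and every ratio or difference describes these libraries. The 95% intervals given are exact and cover counting error only.

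A dividing cell copies its DNA in S phase and parts the copies in mitosis, with gaps called G1 and G2 between them. The genes for these steps are transcribed in waves: those for licensing and copying DNA first, then those for the mitotic kinases, the kinetochore and the spindle. Beta cells of adult mice rarely divide, and they are known to divide more in pregnancy and when insulin demand is high. Their entry into the cycle depends on the D cyclins and Cdk4 and is held back by inhibitors of the cyclin-dependent kinases.

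The promoters of several cycling genes carry the letters of a known mitotic control element. In resting cells the DREAM complex holds many late cycle genes silent through the cell cycle genes homology region (CHR), and B-Myb, FoxM1 and the CCAAT-binding factor NF-Y act at the same promoters when cells divide. The windows below are of 5 of the 15 highest genes in cycling cells, and all 5 are among those that held both motifs. Ube2c, Top2a and Cdk1 are also genes of the rule, which the matched cells described below had to lack. They run 5′ to 3′ from 250 bases before to 50 bases after the gene's start in RefSeq (GRCm38.p6), with CHR words (TTTGAA or TTCGAA) and CCAAT boxes (CCAAT) of either strand in capitals, where the motifs may share bases or adjoin.
Ube2c, chr2:164769679-164769978, plus strand: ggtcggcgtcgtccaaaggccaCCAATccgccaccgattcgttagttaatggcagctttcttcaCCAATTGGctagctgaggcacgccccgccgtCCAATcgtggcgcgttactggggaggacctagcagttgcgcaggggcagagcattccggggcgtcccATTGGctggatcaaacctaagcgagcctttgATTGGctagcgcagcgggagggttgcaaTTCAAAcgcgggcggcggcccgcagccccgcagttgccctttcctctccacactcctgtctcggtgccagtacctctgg
Top2a, chr11:99024140-99024439, minus strand: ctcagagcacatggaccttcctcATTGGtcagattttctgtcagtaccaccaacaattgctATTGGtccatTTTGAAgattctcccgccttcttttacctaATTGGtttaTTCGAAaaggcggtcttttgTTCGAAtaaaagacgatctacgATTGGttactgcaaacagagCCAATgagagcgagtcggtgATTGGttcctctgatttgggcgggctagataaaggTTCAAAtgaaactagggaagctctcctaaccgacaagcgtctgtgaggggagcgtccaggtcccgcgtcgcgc
Cdk1, chr10:69352863-69353162, minus strand: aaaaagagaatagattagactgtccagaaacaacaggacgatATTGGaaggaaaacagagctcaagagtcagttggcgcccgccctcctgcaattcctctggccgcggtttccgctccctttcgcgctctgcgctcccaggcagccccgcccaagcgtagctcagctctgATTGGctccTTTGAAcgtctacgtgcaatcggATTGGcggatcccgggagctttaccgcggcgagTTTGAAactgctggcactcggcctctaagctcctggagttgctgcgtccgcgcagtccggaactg
Cenpf, chr1:189688037-189688336, minus strand: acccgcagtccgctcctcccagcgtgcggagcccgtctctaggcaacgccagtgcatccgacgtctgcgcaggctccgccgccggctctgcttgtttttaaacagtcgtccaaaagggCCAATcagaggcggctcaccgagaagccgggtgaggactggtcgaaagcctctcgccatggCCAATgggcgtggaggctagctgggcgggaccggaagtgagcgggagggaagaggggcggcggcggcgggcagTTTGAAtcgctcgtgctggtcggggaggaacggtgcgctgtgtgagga
Cdc20, chr4:118437294-118437593, minus strand: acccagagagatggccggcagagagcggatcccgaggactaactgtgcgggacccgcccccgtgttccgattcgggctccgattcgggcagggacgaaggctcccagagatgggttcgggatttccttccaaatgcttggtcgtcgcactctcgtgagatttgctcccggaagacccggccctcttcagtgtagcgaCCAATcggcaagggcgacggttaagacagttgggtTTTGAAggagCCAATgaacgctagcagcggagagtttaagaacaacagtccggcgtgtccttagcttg

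At least 1 CHR word and at least 1 CCAAT box stood in each of these 5 windows. They were shown out of the 10 windows of the 15 highest genes that held both motifs. Birc5 and Nusap1, also among the 15 highest, had neither motif in their windows, and Cenpe had a CCAAT box but no CHR word. Top2a held 4 CHR words and 6 CCAAT boxes, and Cdk1 held 2 and 3. Of 13 windows of the 15 highest genes (13 of the 15 were matched by symbol), 10 held a CHR word, or 76.9%, against 19.2% of all 32851 windows in the table. A CCAAT box was in 84.6% of them and in 37.4% of all windows, and both motifs were in 76.9% and 7.53%. Of these 13 windows 5 belong to genes of the rule, and of the other 8 windows 6 held a CHR word (75%) and 7 a CCAAT box (87.5%). By role, a CHR word was in 58.3% of 24 windows of the G2/M list and in 72.5% of 40 windows of the kinetochore, spindle and cytokinesis list. It was in 16.7% of 18 windows of the G1/S list, 16% of 25 windows of the DNA synthesis list and 4.76% of 21 windows of the beta identity list. A CCAAT box did not part the lists in this way. It was in 83.3% of the G2/M windows, 75% of the kinetochore, spindle and cytokinesis windows and 77.8% of the G1/S windows. The DNA synthesis windows had it in 48% and the beta identity windows in 38.1%. Words of the E2F factors (TTTGGCGC, TTTCGCGC or TTTCCCGC, either strand) were more frequent in the lists of the first wave: they were in 50% of the G1/S windows, 24% of the DNA synthesis windows, 10% of the kinetochore, spindle and cytokinesis windows and none of the G2/M windows, against 1.85% of all windows. A match is a description of the letters and not a site of binding, and some genes have several windows.

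The HFD library held 271527648 UMIs, with 12062 kept barcodes, and the CD library 265836346, with 9667. Beta cells had a median of 23704 UMIs in HFD and 27076 in CD. The 2 libraries shared 26 kept barcodes, among them 2 of the HFD cycling cells and 1 of the CD cycling cells. No doublets were removed, since the caller marked only 1 of 12062 kept barcodes in HFD and 2 of 9667 in CD. At a removal rate of 0.8% per 1000 kept barcodes, the highest doublet scores held 4.88% of cycling cells and 6.91% of all beta cells in HFD, and 4.74% and 5.80% in CD.

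The largest group of cycling cells had UMIs of all 6 genes. Of the 205 HFD cycling cells, 110 had UMIs of all 6 genes and 34 had UMIs of exactly 2, and of the 253 CD cycling cells 159 had all 6 and 25 had exactly 2. Mki67, whose protein coats mitotic chromosomes, was seen in 186 of the HFD cells and 241 of the CD cells. Ube2c, an enzyme that passes ubiquitin to targets of the anaphase-promoting complex, was seen in 172 and 240. Top2a, which untangles replicated DNA, had 171 and 214, and Ccna2, the cyclin of S phase and G2, was the least often seen with 143 and 178. Of the Ccna2 UMIs in beta cells, 87.6% in HFD and 89.3% in CD lay in the cycling cells. The other 5 genes had between 90.5% and 98.6% of their UMIs there. The rule favours such shares, since any beta cell with UMIs of at least 2 of the 6 genes was called cycling. These shares thus describe the selection and are not a separate result.

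Genes that the rule did not use also rose across its limit. Stmn1, which encodes the microtubule-destabilizing protein stathmin, had 2.15 CPM (counts scaled to a fixed library total) in HFD beta cells with none of the 6 genes, 9.05 CPM with 1 gene, 121 CPM with 2 genes and 695 CPM with all 6. In CD these levels were 2.53, 7.01, 112 and 849 CPM. Just outside the rule, the 295 HFD and 315 CD beta cells with exactly 1 gene had Cenpf, a kinetochore protein, at 6.57 and 3.67 CPM, against 0.629 and 0.341 CPM with none of the genes, and just inside it the cells with exactly 2 genes had 56.3 and 44.8 CPM. The sum of 68 genes of G2 and mitosis, none of them in the rule, was 319 CPM with 1 gene and 776 CPM with 2 genes in HFD, and 275 and 617 CPM in CD. With 3 genes it was 2000 CPM in HFD (17 cells) and 1775 CPM in CD (6 cells). For this sum the step from 2 to 3 genes was thus larger than the step across the limit of the rule. Cells with none had a sum of 299.6 CPM in HFD and 256 CPM in CD, and cells with all 6 had 4978 and 4975 CPM. The cells with 1 gene were thus near those with none in this sum, but above them in Stmn1 and Cenpf.

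**Figure D1:**
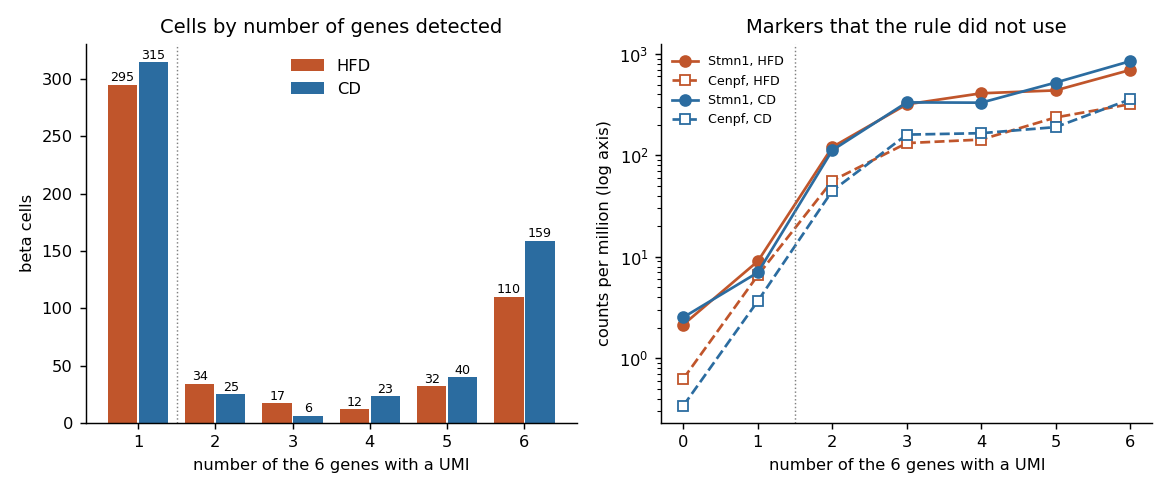
Left, number of beta cells (vertical axis) by how many of the 6 genes had a UMI, HFD bars left of CD bars. Cells without any are not drawn, and the dotted line marks the limit of the rule. Right, level of Stmn1 (filled circles) and Cenpf (open squares) in CPM on a log axis at each number of genes, where Stmn1 stood at 9.05 CPM in HFD and 7.01 CPM in CD with 1 gene and at 121 CPM and 112 CPM with 2 genes.

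The share of beta cells that were cycling was lower in the HFD library than in the CD library. Since finding a UMI depends on how many UMIs a cell has, every beta cell of at least 10000 UMIs was thinned at random to that number before the 6 genes were counted, which left out 526 HFD and 337 CD beta cells. Then 161 of 6330 HFD beta cells met the rule, or 2.54% (2.17 to 2.96), against 208 of 5419 CD beta cells, or 3.84% (3.34 to 4.38). The difference was -1.29 percentage points (-1.96 to -0.646). Without thinning the shares were 2.99% (2.60 to 3.42) and 4.40% (3.88 to 4.96). Without the cells over 60000 UMIs, of which the cycling cells held 19 in HFD and 81 in CD, the difference was -0.778 points. Whether it lies beyond the variation between mice cannot be told with 1 library each.

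Cycling cells had more UMIs than other beta cells. The rule was applied after thinning, so that the original depth did not decide who met it. The cycling cells had had a median of 40374 UMIs in HFD (quartiles 29259 and 50302), against 24370 (19695 and 34192) for HFD beta cells with none of the 6 genes, a ratio of 1.66. In CD the medians were 45589 (32472 and 62209) and 27468 (22618 and 41126), again a ratio of 1.66. The quartile ranges overlapped in both libraries. A droplet with more than 1 cell also has more UMIs, and its part in these medians was not tested. The highest doublet scores held 4.88% of HFD and 4.74% of CD cycling cells. Of the beta cells matched to them in depth, described below, they held 9.46% in HFD and 9.17% in CD.

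**Figure D2:**
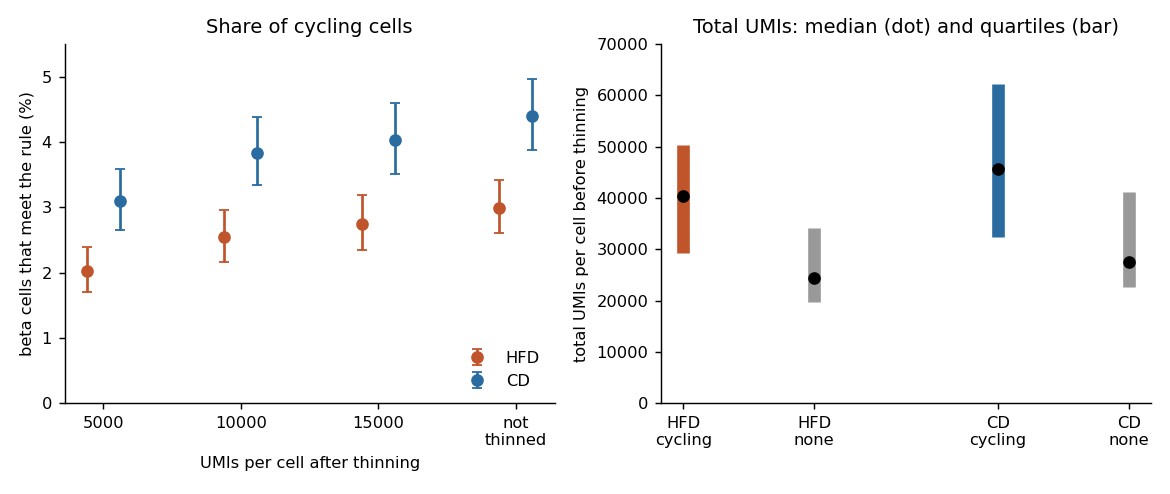
Left, percentage of beta cells that met the rule after thinning to 5000, 10000 or 15000 UMIs and without thinning, HFD left of CD, with exact 95% intervals for counting error; at 10000 UMIs HFD is at 2.54% and CD at 3.84%, and the 2 intervals do not overlap at any depth. Right, total UMIs per cell before thinning as median (dot) and quartiles (bar) for cells that met the rule (coloured) and cells with none of the 6 genes (grey) after thinning to 10000 UMIs, with medians of 40374 and 24370 in HFD and 45589 and 27468 in CD.

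For every comparison of genes, each cycling cell was set beside the 5 beta cells of its own library that had none of the 6 genes and were nearest in total UMIs (1025 matched cells in HFD and 1265 in CD). Median totals were 38116 UMIs in cycling and 38108 in matched cells of HFD, and 47176 and 47226 in CD. At equal total UMIs more genes were detected per cycling cell: a median of 4174 against 3822 in HFD and 4950 against 4371 in CD. UMIs outside insulin and mitochondrial genes were also more, with medians of 13813 against 12241 in HFD and 18999 against 15900 in CD, and their part in the number of genes was not tested. Insulin took a smaller part of the transcripts, with medians of 61.0% in cycling and 64.3% in matched HFD cells and 58.2% and 62.7% in CD. The mitochondrial share was 3.28% against 3.51% in HFD and 2.43% against 2.51% in CD. UMIs were then summed over each set of cells and given as CPM scaled with TMM factors. The rule chose the cells from this same contrast, so all cycling over matched ratios are descriptions.

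A gene was counted with at least 50 UMIs over both sums and 20 CPM in either. In HFD, 193 of 3088 counted genes were at least 2-fold higher in cycling cells (6.25% of those counted) and 8 were at least 2-fold lower (0.259%). In CD, 159 of 3094 were higher (5.14%) and 1 was lower (0.0323%). The limit of 20 CPM was reached through the cycling cells alone by 354 counted genes in HFD and 257 in CD, which had to be higher. It was reached through the matched cells alone by 232 in HFD and 257 in CD, which had to be lower. Of the 2869 genes counted in both libraries, 144 were higher in both. That is 83.7% of the 172 higher in HFD and 96.0% of the 150 higher in CD. None was 2-fold higher in cycling cells of 1 library and 2-fold lower in those of the other. Aldoa, an enzyme of glycolysis, was the gene that was at least 2-fold lower in both.

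Genes of G2 and mitosis were the furthest apart. All 26 genes of the G2/M list had more CPM in cycling than in matched cells of each library, as did 43.6% of all genes with a UMI in HFD and 41.0% in CD. The counting limit was reached by 14 of them in HFD and 15 in CD, but by 12 and 13 through the cycling cells alone, so that most of the counted genes had to be higher. Over all 26 members the sum was 1444 CPM in cycling and 113 CPM in matched HFD cells, a ratio of 12.8 (12.4 to 13.3), and 1363 and 123 CPM in CD, a ratio of 11.1 (10.8 to 11.4). Pbk, a mitotic kinase, had 973 UMIs in HFD cycling cells and 4 in matched HFD cells, and 1460 and 9 UMIs in CD. It was seen in 77.1% of HFD and 89.3% of CD cycling cells and in under 1% of matched cells. Cdc20, which activates the anaphase-promoting complex, had 535 UMIs in HFD cycling and 5 in matched cells, a ratio of 474 (202 to 1465), and 926 and 5 UMIs in CD, a ratio of 762 (325 to 2353). Cks2, which binds the cyclin-dependent kinases, reached 138 CPM in HFD cycling cells against 0.958 CPM in matched cells, and 139 against 0.629 CPM in CD. The mitotic cyclins Ccnb1 and Ccnb2, named after their values were seen, were at 63.3 and 51.5 CPM in HFD cycling cells and 49.96 and 50.9 CPM in CD cycling cells, with at most 0.192 CPM in matched cells. Not every member was silent outside the cycle: Cks1b had 127 CPM in HFD cycling and 10.0 CPM in matched cells and 127 and 13.7 CPM in CD, and Arl6ip1 had 459 and 53.3 CPM in HFD and 406 and 56.1 CPM in CD.

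Kinetochore, spindle and cytokinesis genes were higher as well. All 42 had more CPM in cycling than in matched cells of each library. The counting limit was reached by 27 in each, by 26 of them through the cycling cells alone. The sum over all 42 was 2279 CPM in cycling and 209 CPM in matched HFD cells and 2120 and 147 CPM in CD. Cenpf had 242 CPM in HFD cycling cells against 0.657 CPM in matched cells, and 250 against 0.262 CPM in CD. Cenpa, the histone H3 variant that marks centromeres, had 120 against 0.246 CPM in HFD and 129 against 0.227 CPM in CD, and was found in 77.6% of HFD and 88.9% of CD cycling cells. Hmmr and Nusap1, which bind spindle microtubules, had 77.1 and 72.4 CPM in HFD cycling cells and 70.1 and 75.1 CPM in CD cycling cells, with under 0.2 CPM in matched cells. Prc1, which bundles the microtubules of the central spindle, was 118-fold higher in HFD (81.7 to 176) and 99.3-fold higher in CD (74.6 to 135). Smc4, a condensin subunit, was 19.5-fold and 19.4-fold higher.

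Spc25 was an exception within that list. It encodes a subunit of the NDC80 complex of the kinetochore, and its levels were 444 CPM in HFD cycling and 171 CPM in matched cells and 284 and 103 CPM in CD. It was found in 91.9% of matched HFD cells and 91.6% of matched CD cells, whereas its partner Spc24 was found in 4% and 7.91%. Spc24 was 80.8-fold higher in cycling cells in HFD and 48.7-fold higher in CD, and Spc25 2.60-fold and 2.75-fold. In the annotation Spc25 lies on the minus strand of chromosome 2 at 69193895 to 69206194 (GRCm38), beside G6pc2 on the plus strand at 69211073 to 69227841. Spc25 alone made up 171 of the 209 CPM of the list in matched HFD cells and 103 of the 147 CPM in matched CD cells.

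Genes of DNA copying had smaller ratios, and fewer reached the counting limit. All 27 DNA synthesis genes had more CPM in cycling than in matched cells of each library. The counting limit was reached by 9 in HFD and 4 in CD, by 8 and 3 through the cycling cells alone. The sum over all 27 was 540 CPM in cycling and 95.01 CPM in matched HFD cells, a ratio of 5.68 (5.44 to 5.94), and 428 and 117 CPM in CD, a ratio of 3.67 (3.54 to 3.8). Rrm1, the large subunit of ribonucleotide reductase, had 28.5 against 2.55 CPM in HFD and 24.6 against 2.57 CPM in CD. Pcna, the sliding clamp of the DNA polymerases, had 32.5 against 6.35 CPM in HFD and 18.1 against 8.26 CPM in CD. Dut, which removes dUTP, was at 104 against 31.6 CPM and at 103 against 42.1 CPM. In matched cells the sum of the list was below the sums of the G2/M and the kinetochore lists in both libraries. Of the 20 genes of G1/S licensing and entry, Orc6 of the origin recognition complex was the 1 that was counted, through the cycling cells alone. Its ratios were 3.50 (2.93 to 4.19) in HFD and 2.38 (2.09 to 2.71) in CD, and the sum over all 20 had ratios of 7.58 and 4.74.

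The balance of the 2 waves was also read in each cell at 10000 UMIs. A cell counted as high for a wave when its UMIs for 47 G1/S and DNA synthesis genes, or for the 68 genes of G2 and mitosis, were above the 99th percentile of the matched cells of its library. Of 195 HFD cycling cells, 86 were high for G2 and mitosis alone (44.1%), 80 for both waves (41.0%), 6 for DNA synthesis alone (3.08%) and 23 for neither (11.8%). Of 247 CD cycling cells these were 113 (45.7%), 112 (45.3%), 2 (0.810%) and 20 (8.10%). The rule itself asks for genes expressed from S phase to mitosis, so cells earlier in the cycle were not looked for. The cells high for neither had original medians of 35270 UMIs in HFD and 69132 UMIs in CD. The percentages lean on the limits, since 29 HFD and 63 CD cycling cells lay within 1 UMI of the limit for DNA synthesis, and 16 and 7 within 1 UMI of that for mitosis.

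**Figure D3:**
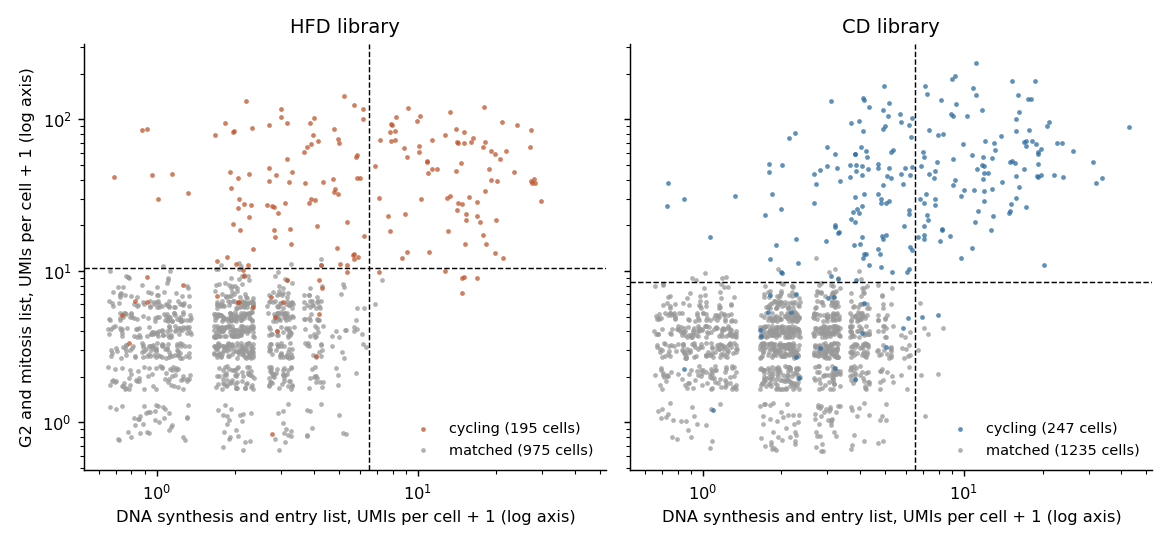
Each point is 1 beta cell thinned to 10000 UMIs, with UMIs plus 1 for the 47 G1/S and DNA synthesis genes across and for the 68 genes of G2 and mitosis upwards (log axes, points shifted at random by under 1 UMI), HFD left and CD right. Coloured points are cycling cells, grey points matched cells and dashed lines the limits; 86 HFD and 113 CD cycling cells lie in the upper left field, and 80 and 112 in the upper right.

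Chromatin and cytoskeleton genes were higher in cycling cells, from low or high levels in matched cells. All 22 chromatin and tubulin genes had more CPM in cycling cells of each library. Of the 20 counted, 16 were at least 2-fold higher in HFD and 15 in CD, and 7 and 6 were counted through the cycling cells alone. Stmn1 had 519 CPM in HFD cycling and 2.22 CPM in matched cells and 601 and 2.39 CPM in CD. Hmgb2, a chromatin protein, had 244 against 8.32 CPM in HFD and 358 against 13.4 CPM in CD, and Tubb5, a beta-tubulin, 224 against 18.2 CPM and 292 against 23.1 CPM. Of 16 histone genes, 10 were counted and 6 were at least 2-fold higher in each library, with 4 counted through the cycling cells alone. H2afz, the variant H2A.Z, had 1142 CPM in HFD cycling cells against 229 CPM in matched cells and 1306 against 267 CPM in CD. Hist1h2ap, a histone of S phase, had 125 against 4.98 CPM in HFD and 111 against 8.77 CPM in CD. Histone and tubulin genes and Hmgn2 (5.81-fold and 4.50-fold higher) have near-identical copies, so reads may have been divided among them, and histone messages without poly(A) tails are poorly caught by this method.

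The regulators that gate entry lay on both sides of a ratio of 1. Ccnd2 and Ccnd1, the D cyclins of the mouse beta cell, were lower in cycling cells: Ccnd2 was at 339 against 479 CPM in HFD and 242 against 358 CPM in CD, and Ccnd1 at 46.8 against 66.1 CPM and 38.8 against 54.0 CPM. Their kinase Cdk4 was at 41.6 against 32.4 CPM in HFD and 58.5 against 44.4 CPM in CD. Inhibitors of these kinases were higher. Of 11 listed inhibitor and pocket protein genes, 4 were counted in each library. Cdkn2c and Cdkn2d reached the counting limit through the cycling cells alone, so they had to be higher. Cdkn2c, which encodes p18, was at 69.0 against 7.67 CPM in HFD and 79.4 against 7.30 CPM in CD, and Cdkn2d, which encodes p19, at 82.0 against 9.14 CPM and 69.4 against 10.7 CPM. Cdkn1b, which encodes p27, had ratios of 1.52 (1.32 to 1.74) in HFD and 1.61 (1.45 to 1.77) in CD. Cdkn1a, which encodes p21, had 57.0 against 23.0 CPM in HFD and 32.9 against 20.9 CPM in CD, ratios of 2.48 (2.21 to 2.78) and 1.57 (1.41 to 1.75). Of 19 p53 target and repair genes, 4 were counted in HFD and 3 in CD and none of these passed 2-fold in either direction. Of all 19, 13 had more CPM in cycling cells in each library (68.4%), as did 43.6% of all genes with a UMI in HFD and 41.0% in CD. The sum over all 19 had ratios of 1.18 (1.12 to 1.23) in HFD and 1.07 (1.03 to 1.11) in CD. Ezh2, the methyltransferase of Polycomb complex 2, which silences the Ink4a locus in beta cells, was 15.3-fold higher in HFD (11.7 to 20.4) and 13.3-fold higher in CD (10.7 to 16.7). Of the 22 genes in the mitogen pathway list, which holds Ezh2, 4 were counted in HFD and 5 in CD. Ezh2 was the 1 to pass 2-fold, and it reached the counting limit through the cycling cells alone, so it had to be higher. The growth hormone receptor Ghr and the IGF receptor Igf1r of that list had ratios between 0.649 and 0.767.

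Most beta cell identity genes had somewhat lower levels in cycling cells. Of 25 beta identity genes, 19 were counted in each library, none passed 2-fold, and 17 of 19 had ratios below 1 in each. Ratios above 1 were found for the other 2, and for 1534 of 3088 counted genes in HFD and 1188 of 3094 in CD. The median log2 ratio of the list was -0.27 in HFD and -0.33 in CD, beside -0.00 and -0.08 over all counted genes. Scaling by total counts, which moves the median over all counted genes to 0.16 and 0.18, left these medians at -0.10 and -0.07. G6pc2, the beta cell glucose-6-phosphatase, was at 366 against 667 CPM in HFD and 238 against 391 CPM in CD. Slc2a2, the glucose transporter GLUT2, was at 137 against 240 CPM in HFD and 163 against 265 CPM in CD. Iapp, the amyloid peptide stored with insulin, had ratios of 0.839 and 0.758. Of the transcription factors, named after their values were seen, Nkx6-1 had ratios of 0.724 and 0.803, Mafa 0.830 and 0.814, and Pdx1 1.29 and 1.07.

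The other genes lowest in both libraries were of mixed function. Aldoa had 54.8 against 110 CPM in HFD and 65.2 against 142 CPM in CD, ratios of 0.499 (0.451 to 0.550) and 0.460 (0.429 to 0.493). Rgs2, a brake on G protein signals, had ratios of 0.553 and 0.605, Insrr, the insulin receptor-related receptor, 0.550 and 0.638, and Ppp1r1a, an inhibitor of protein phosphatase 1, 0.605 and 0.623. Ctsl, a lysosomal protease, had 0.605 and 0.542, and Defb1, a beta-defensin, 0.582 and 0.547. Mrln and Fkbp1b, which act on calcium pumps and channels, had 0.562 and 0.640 and 0.634 and 0.642. All of these are seen in most cells of either kind, so the ratios are of cells with transcripts and not of a few cells: Slc2a2 for example was seen in 90.7% of HFD cycling and 97.3% of matched cells.

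Secretory granule and cholesterol lists lay below the median of all genes, as the beta identity list did, and other metabolic lists lay on both sides of it. Of 21 secretory granule genes 19 were counted, none passed 2-fold, and the median log2 ratios were -0.33 in HFD and -0.37 in CD. Chga, the granule protein chromogranin A, was at 1668 against 2355 CPM in HFD and 1974 against 2987 CPM in CD. Of 21 genes of cholesterol synthesis, 8 were counted in HFD and 7 in CD, and all of these had ratios below 1, with medians of -0.46 and -0.32. The counting limit was reached through the matched cells alone by 1 of them in HFD and 2 in CD, which had to be lower. Of all 21 members, 5 in HFD (23.8%) and 4 in CD (19.0%) had more CPM in cycling cells. Of all genes with a UMI, 43.6% and 41.0% did. The 12 counted mitochondrially encoded genes had medians of -0.25 and -0.27, while the 30 nuclear genes of oxidative phosphorylation had 0.15 and 0.01. Scaling by total counts moved the median over all counted genes from -0.003 to 0.16 in HFD and from -0.08 to 0.18 in CD. Such a shift applies to each gene, and in CD it is nearly as large as the mitochondrial median. The lower mitochondrial level in CD thus depends on the scaling. The unfolded protein response list lay on opposite sides of 0, with a median of 0.18 in HFD and -0.24 in CD, but scaled by total counts the CD median was 0.01. In HFD 13 of its 19 counted genes had ratios above 1 and in CD 4 of 19. Over all counted genes, 1534 of 3088 had ratios above 1 in HFD and 1188 of 3094 in CD. Glycolysis genes had medians of 0.03 in HFD and -0.14 in CD, with 0.18 in CD when scaled by total counts.

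**Figure D4:**
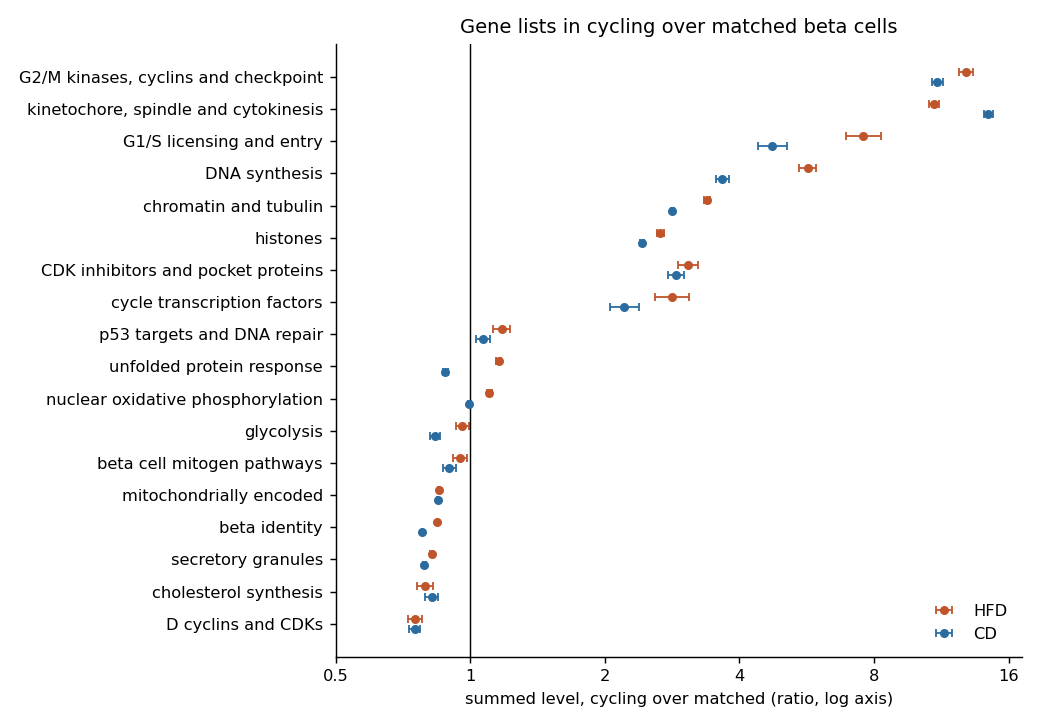
Ratio of the summed level of all members of each gene list, cycling over matched beta cells, on a log axis, with exact 95% intervals for counting error and HFD points above CD points. The line marks a ratio of 1. The G2/M list is at 12.8 in HFD and 11.1 in CD, and the beta identity list at 0.845 and 0.779. The beta identity sum is mostly insulin: of its 5.3684e+06 UMIs in HFD cycling cells, Ins2 held 3430945, Ins1 1391962 and Iapp 528092. Ins1 and Ins2 were also used to choose the beta cells.

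Markers of other cells were looked for in the cycling cells. Lymphocyte markers, which would show dividing immune cells, had 4 UMIs in 1 HFD cycling cell (0.488% of cells), with Cd3e, Cd3d, Cd3g, Trac and Cd79b at 0, and none in CD. Macrophage markers were at 32.5 CPM in HFD cycling and 50.9 CPM in matched cells and 20.9 and 35.04 CPM in CD, with Adgre1 at 0 in cycling cells of both. Endothelial markers were at 24.9 against 47.3 CPM in HFD and 13.4 against 15.5 CPM in CD, and 5 cells held most of the UMIs of Flt1 (85.7% in HFD and 100% in CD). The share of cells with any endothelial UMI was higher in cycling cells, at 29.3% against 22.3% in HFD and 25.7% against 20.6% in CD. Mesenchymal markers were at 4.001 against 4.60 CPM in HFD and 3.95 against 2.67 CPM in CD, and acinar markers at 1.70 against 3.04 CPM and 14.1 against 27.7 CPM. Schwann markers were at 5.82 against 8.08 CPM and 6.33 against 8.11 CPM, with Sox10 and Ngfr at 0 in the cycling cells of both libraries. Ductal markers were at 181 against 208 CPM and 177 against 237 CPM. Alpha markers were at 1604 against 2285 CPM in HFD and 1068 against 1284 CPM in CD, and delta markers at 213 against 350.4 CPM and 325 against 374 CPM. Scaled by total counts alone, 2 of these sums were higher in the CD cycling cells: delta markers at 362 against 349.6 CPM and endothelial markers at 14.9 against 14.5 CPM. Markers of pancreatic polypeptide (PP) cells were at 1416 against 1707 CPM in HFD and 1713 against 1285 CPM in CD, within the limit on Ppy that the rule sets, and their part in the ratios was not tested. The erythroid marker Hbb-bs was lower in cycling cells, with 35 against 1021 UMIs in HFD and 3 against 198 in CD, but in HFD it was higher when cells were matched on UMIs outside insulin and mitochondrial genes (log2 ratio 0.07) or when all 6 genes were asked for (0.20).

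Free RNA from broken cells carried the 6 genes at low levels. Barcodes with 10 to 100 UMIs had 37.9 CPM of the 6 genes in HFD and 60.2 CPM in CD, against 897 and 878 CPM in the cycling cells without TMM scaling. Alpha cells (Gcg of at least 10% of UMIs) met the cycling rule in 6 of 2105 HFD barcodes (0.285%) and 12 of 1351 CD barcodes (0.888%), and delta cells (Sst of at least 10%) in 0 of 334 and 0 of 270. These cells are shallower, with median UMIs of 7747 and 9644 for alpha cells and 4984 and 6442 for delta cells. Thinned to 2000 UMIs, 1.24% of HFD beta cells (0.993 to 1.53), 0.0962% of HFD alpha cells (0.0117 to 0.347) and 0 of 330 HFD delta cells met the rule, where a floor of 3 counts allows up to 0.909% and the exact interval up to 1.11%. In CD these were 2.07% (1.72 to 2.48), 0.602% (0.260 to 1.18) and 0 of 268, which allows up to 1.12% by the floor and 1.37% by the exact interval. Thinned to 2000 UMIs outside the hormone genes, the shares were 2.14% of beta and 0.247% of alpha cells in HFD and 3.14% and 0.629% in CD. In both libraries the rule was thus met more often in beta than in alpha cells at equal depth.

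Few genes differed by 2-fold between the cycling cells of the libraries, and their values in matched cells, which come from the same libraries, are given beside them. Of 3056 counted genes, 21 were at least 2-fold higher in HFD cycling than in CD cycling cells (0.687%) and 21 were at least 2-fold lower (0.687%). In the matched cells 24 of 3006 were higher (0.798%) and 23 were lower (0.765%). The vitamin D-binding protein gene Gc had 78.8 CPM in HFD cycling and 16.03 CPM in CD cycling cells, a ratio of 4.92 (4.22 to 5.75), and 66.1 and 12.5 CPM in matched cells. Dapl1 had 354 against 76.0 CPM in cycling and 182 against 34.7 CPM in matched cells. Prlr, the prolactin receptor through which pregnancy raises beta cell division, had 192 against 89.5 CPM in cycling cells and 206 against 105 CPM in matched cells. Fkbp11, a peptidyl-prolyl isomerase of the endoplasmic reticulum, had ratios of 3.06 (2.65 to 3.54) in cycling and 2.01 (1.90 to 2.14) in matched cells.

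The lowest genes in HFD relative to CD were led by metallothioneins, which bind zinc and copper. Mt1 had 507 against 3294 CPM in cycling cells and 558 against 3918 CPM in matched cells, and Mt2 had 76.3 against 427 CPM and 62.7 against 463 CPM. The cold-inducible RNA-binding genes Rbm3 and Cirbp had ratios of 0.409 and 0.483 in cycling cells and 0.354 and 0.538 in matched cells. Sox4, a transcription factor of islet development, had 28.4 against 59.2 CPM in cycling cells, a ratio of 0.480 (0.413 to 0.555), and 24.5 against 37.7 CPM in matched cells, a ratio of 0.650 (0.600 to 0.703). Nnat, an imprinted gene of the endoplasmic reticulum, had 30.4 against 66.6 CPM in cycling and 5.83 against 19.98 CPM in matched cells. Nnat was also higher in cycling than in matched cells, 5.22-fold (4.33 to 6.29) in HFD and 3.33-fold (3.05 to 3.64) in CD. Its level in matched cells was below the counting limit of 20 CPM in both libraries, so it had to be higher. Rbm3 (2.12-fold and 1.84-fold) and Dapl1 (1.95-fold and 2.19-fold) were higher in cycling cells too.

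Genes of the G2/M list and of the kinetochore, spindle and cytokinesis list were at similar levels in the cycling cells of the 2 libraries, while other cycle lists differed. Of the 15 genes of the G2/M list that were counted, none passed 2-fold, and their median log2 ratio of HFD over CD was 0.01; the 28 counted kinetochore, spindle and cytokinesis genes had 0.02 and none past 2-fold. The sum over all 27 DNA synthesis genes was 540 against 428 CPM, a ratio of 1.26 (1.21 to 1.31), while in matched cells it was 95.01 against 117 CPM, a ratio of 0.815 (0.782 to 0.849). Pcna was at 32.5 against 18.1 CPM, a ratio of 1.79 (1.5 to 2.14), and in matched cells at 6.35 against 8.26 CPM. Cdkn1a was at 57.0 against 32.9 CPM in cycling cells, a ratio of 1.73 (1.52 to 1.97), and at 23.0 against 20.9 CPM in matched cells. Summed over all members, the ratio of HFD over CD was 1.40 for the G1/S list in cycling cells and 0.875 in matched cells. It was 1.37 and 1.07 for the list of cycle transcription factors. For chromatin and tubulin genes it was 0.810 and 0.677, and for histones 0.853 and 0.777. These differences rest on 1 library of each diet.

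**Figure D5:**
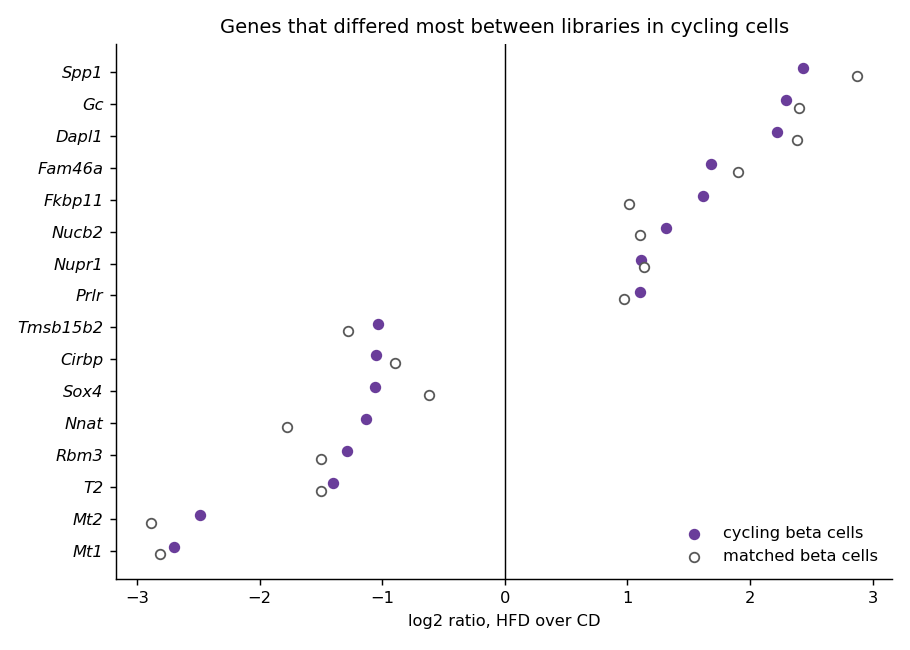
Log2 ratio of HFD over CD for the 8 highest and 8 lowest genes in cycling beta cells (filled points), with the same ratio in the matched beta cells (open points) below each. The points run from Mt1 at -2.70 in cycling cells and -2.81 in matched cells to Spp1 at 2.43 and 2.87, and Sox4 lies at -1.06 and -0.62.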

How the data were processed

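Islet cells were profiled with 10x Genomics 3' v3 chemistry, per the labels' protocols. The deposited matrices hold raw UMI counts per gene and barcode, written by software version 3.0.2 per the file headers and made by the authors with Cell Ranger 6.0.1 against mm10 per the submitters' processing notes. All barcodes are listed, so cells were selected here by the limits given above (Python 3.11.15, scipy 1.17.1). Of 31053 gene identifiers, 99.6% matched GENCODE M21. The members and gene lists were chosen with earlier results of these data known.

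Doublet scores came from the scrublet routine of scanpy 1.11.5. Its automatic threshold marked 1 HFD and 2 CD barcodes and was not used, and leaving out the highest scores is an alternative. Matching took the nearest total UMIs on the log scale without replacement. Summed counts (7940592 UMIs in HFD cycling, 39484225 in HFD matched, 12488745 in CD cycling and 61276835 in CD matched cells) were scaled with TMM factors of edgeR 4.0.16 in R 4.3.3. Size factors of DESeq2 1.42.0 were an alternative. Ratios have exact conditional binomial 95% intervals, shares have Clopper-Pearson intervals, and a sum of 0 is set to 3 counts in list medians. No p-value was made.

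Named genes are the 6 rule genes, the 5 markers, the 15 highest and 10 lowest in cycling over matched cells in both libraries, and the 8 highest and 8 lowest in HFD over CD. Ranking used whichever end of the interval was closer to 1, among genes of at least 50 CPM. It skipped genes of ribosomal proteins or the mitochondrial genome and gene models with no name. Up to 6 members of each gene list were added, by UMIs and by that bound. The ratio and interval step was checked on simulated counts with known folds.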

Additional observations from a re-analysis of the deposited data

Results flagged for a closer look

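Genes whose cycling over matched ratio lay on opposite sides of 1 in the HFD and the CD library, with intervals that exclude 1 in each and a log2 ratio of at least 0.25 in size in 1 of them, are given here. With 1 library of each diet none of these differences between libraries was tested. Hspa5, the main chaperone of the endoplasmic reticulum, had log2 ratios of 0.271 in HFD and -0.316 in CD, and -0.0626 in CD when scaled by total counts. Pdia6, a disulfide isomerase of the same compartment, had 0.323 in HFD and -0.156 in CD, but 0.098 in CD when scaled by total counts. Mt2 had 0.282 in HFD and -0.117 in CD, and 0.137 in CD when scaled by total counts.

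The PP cell hormones differed as well. Ppy had log2 ratios of -0.19 in HFD (-0.0226 when scaled by total counts) and 0.437 in CD, and Pyy had -0.425 in HFD and 0.393 in CD. A few cells carried these transcripts, since 5 cycling cells held 61.7% of the Ppy UMIs in HFD and 44.7% in CD, and 59.9% and 51.2% of the Pyy UMIs. Without cells over 60000 UMIs the CD ratio of Pyy was -0.604.

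Barcodes outside the rule also held the programme. Insulin barcodes with another islet hormone past its limit had at least 2 of the 6 genes in 14 of 612 cases in HFD, or 2.29% (1.26 to 3.81), and in 19 of 809 in CD, or 2.35% (1.42 to 3.64). They may hold more than 1 cell, which was not tested.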

How the results depend on the processing

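No paired analysis was possible because each diet has 1 library, and leaving out a replicate was not possible for the same reason. The share was lower in HFD under each of the 11 settings, the main one included. The HFD and CD shares were 2.99% and 4.40% without thinning, 2.03% and 3.10% at 5000 UMIs and, with all 6 genes asked for, 0.490% and 0.830% (difference -0.341 points). The HFD share was 2.04% with at least 3 genes, and the CD share 3.14% without cells over 60000 UMIs. The last 2 kinds of limit (all 6 genes, and the 60000 UMI limit) were chosen after seeing the data.

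Counts of genes that were at least 2-fold lower were small and moved most. In HFD and CD they were 13 and 4 with matching on UMIs outside insulin and mitochondrial genes, 19 and 15 with every cell scaled to the same total, 31 and 10 with all 6 genes, and 3 and 0 when scaled by total counts. In CD they were 3 without the highest doublet scores, 4 with unmatched cells and 27 without cells over 60000 UMIs, where 251 genes were higher. With totals that leave out insulin and mitochondrial genes, 481 genes were higher and 31 lower in HFD, 410 and 8 in CD, and 69 and 37 in HFD over CD. With no limit on low counts these were 1693 and 666, 1722 and 577, and 816 and 611, since more genes enter.

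Of the named genes at least 2-fold apart, Hbb-bs in HFD changed sign (log2 ratio 0.0667 with the other matching and 0.197 with all 6 genes). Of 295 smaller ratios of named genes, 88 changed sign under at least 1 setting, among them those of Pyy without cells over 60000 UMIs (-0.604 in CD and 0.277 in HFD over CD, against 0.393 and -0.770) and of Pdia6 and Mt2 in CD scaled by total counts (0.0982 and 0.137). Of the list medians of at least 0.1 in size, those of the unfolded protein response (0.0113) and glycolysis (0.184) in CD changed sign when scaled by total counts. The cause of the changes was not tested. Of the list medians under other settings, 324 stayed within the median of the 95% intervals of their members, 64 moved beyond it and 2 changed sign. Matched sums limit the largest ratios: Cenpf has 24 UMIs in matched HFD cells and 15 in matched CD cells.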
